A study of Rattus norvegicus with 23 samples.

Results

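Txnip, Arrdc4 and the transcription factor genes Mlxip, Mlxipl and Mlx were followed by name in 2 rat kidney cell lines, as targets and factors of the glucose-sensing MondoA and ChREBP system. Of these 5 genes, 4 were measured among the 30452 genes of the count table, and all 4 passed the filter on low counts together with 14777 genes in all. Mlxipl, which encodes ChREBP, was not found under its symbol in the count table, so its level was not analysed here. NRK-52E cells, labelled epithelial, and NRK-49F cells, known as a rat kidney fibroblast line, were each grown alone, kept 24 h in medium without serum and then held for 48 h at pH 7.4 as control or at pH 6.0, set with HCl. There were 6 samples of NRK-52E cells at pH 7.4, 6 at pH 6.0, 6 samples of NRK-49F cells at pH 7.4 and 5 at pH 6.0. By label the samples further fall into sample groups, each of 1 line (1 and 3 NRK-52E, 4 and 6 NRK-49F) and each holding both pH values. What a sample group stands for is not stated. The study calls its samples biological, but whether each came from a separate culture is not given in the sources used here, so p-values measure the spread between these samples, which may be in part technical.

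Levels are given as FPM, fragments counted on a gene per 1000000 of the TMM-scaled library size, with the mean ± SD over samples. FPM is not corrected for gene length, so levels are compared between samples of 1 gene and not between genes. Total counts per sample ran from 16412564 to 34250535, with a median of 19830621. Changes are log2 fold changes, pH 6.0 against pH 7.4, from edgeR's quasi-likelihood test over all 23 samples, with p-values adjusted by Benjamini-Hochberg over the 14777 genes tested and a threshold of 0.05. Of the 10 epithelial markers in the table, only Krt8, a keratin, had a mean above 1 FPM in any condition, at 499 ± 76.4 FPM (SD, n = 6) in NRK-52E and 839 ± 193 FPM (SD, n = 6) in NRK-49F cells at pH 7.4, while Epcam and Cdh1 were at or near 0 in both lines. The epithelial label of NRK-52E cells was thus not matched by the defining markers that were measured, and the lines are called by their names here. Krt19 and Ocln, also listed as epithelial markers, were not found under their symbols. Pdgfra, a receptor that marks fibroblasts, separated the lines, with 251 to 366 FPM in NRK-49F and 0.68 to 4.73 FPM in NRK-52E cells at pH 7.4. Of 12 fibroblast markers 10 were tested, of which 9 were lower and 1 was higher in NRK-52E than in NRK-49F cells at pH 7.4. Of all genes 68.8% were called there in either direction. The higher marker was Col3a1, a collagen, at 6148.5 ± 1378 FPM in NRK-52E and 1212 ± 111 FPM in NRK-49F cells (SD, n = 6 each). Replicate A021 had the highest Pdgfra level of the NRK-52E samples at pH 7.4. Without A021 the change of Txnip in NRK-52E cells was 0.36 and that of Arrdc4 was 1.54 on the log2 scale.

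MondoA, encoded by Mlxip, and its relative ChREBP are basic helix-loop-helix leucine zipper factors that need the partner Mlx to bind DNA. They sense glucose 6-phosphate and related sugar phosphates and act through carbohydrate response elements, paired E box-like motifs in the promoters of their targets. Txnip, which binds thioredoxin, and Arrdc4 are alpha-arrestins that lower glucose uptake by taking glucose carriers from the cell surface, and both are textbook MondoA targets. Acid medium has been described to raise both transcripts through MondoA in other cells.

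The promoter of Arrdc4 and that of Mlx are shown because they hold an E box (CACGTG), the letters of which a carbohydrate response element repeats. The sequences are the 250 bases before the transcription start in RefSeq on the build GRCr8, read 5′ to 3′ on the strand of the gene, with the E box and each CCAAT box (CCAAT, or ATTGG on the other strand) in capitals.
Arrdc4, chr1:131793426-131793675, minus strand: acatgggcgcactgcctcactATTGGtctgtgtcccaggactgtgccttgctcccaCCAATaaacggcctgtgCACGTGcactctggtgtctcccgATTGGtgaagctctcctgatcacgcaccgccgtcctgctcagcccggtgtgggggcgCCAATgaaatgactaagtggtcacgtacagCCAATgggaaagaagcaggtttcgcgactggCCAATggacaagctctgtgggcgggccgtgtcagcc
Mlx, chr10:86519636-86519885, plus strand: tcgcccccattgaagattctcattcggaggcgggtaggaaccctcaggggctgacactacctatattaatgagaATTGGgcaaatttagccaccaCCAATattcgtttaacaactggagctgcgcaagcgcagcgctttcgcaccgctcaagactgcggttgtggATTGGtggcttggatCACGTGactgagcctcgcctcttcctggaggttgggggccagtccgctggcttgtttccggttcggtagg
The E box of Arrdc4 began 177 bases before the start and that of Mlx 70 bases before it. Of 27457 RefSeq promoters, 1 per gene and covering 250 bases before to 50 after the start, 6.65% held an E box. CCAAT boxes numbered 6 in the Arrdc4 promoter, and 14 of the 27457 promoters, 0.0510%, held 6 or more. The Mlx promoter held 3 CCAAT boxes, and 3.24% of promoters held at least that many. A full element, CANGNG and CNCNTG set 5 bases apart, searched on both strands and including any pair of E boxes at that distance, was matched in none of the promoters of Arrdc4, Mlxip, Mlxipl and Mlx, against 0.524% of all promoters. The promoters of Mlxip and Mlxipl held no CACGTG. Txnip had no entry among the RefSeq promoters used, so its promoter was not searched.

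At pH 6.0 both target genes were higher than at pH 7.4 in both lines. Txnip rose 4.96-fold in NRK-49F and 1.27-fold in NRK-52E cells, while Arrdc4 rose 3.24-fold and 2.99-fold. Of the 4 measured members, 4 passed the test upward in NRK-52E cells, where 61.2% of all genes tested were called, 24.7% higher and 36.6% lower. The call of Mlxip in that line was lost without A024, A033, A035 or A036 and with sample groups 1 and 4 alone. That of Txnip was lost with sample groups 3 and 6 alone. In NRK-49F cells 2 of 4 passed upward, where 28.9% of all genes were called, 14.5% higher and 14.4% lower, and Mlx became the third there when sample group entered as a block. The median log2 fold change of all genes tested was -0.12 for the NRK-52E line and 0.00088 for the NRK-49F line. Relative to that median, Txnip was at 0.47 and Arrdc4 at 1.70 in the NRK-52E line, and at 2.31 and 1.70 in NRK-49F cells. In bulk samples, fewer cells of a type and less RNA per cell cannot be told apart.

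**Figure D1:**
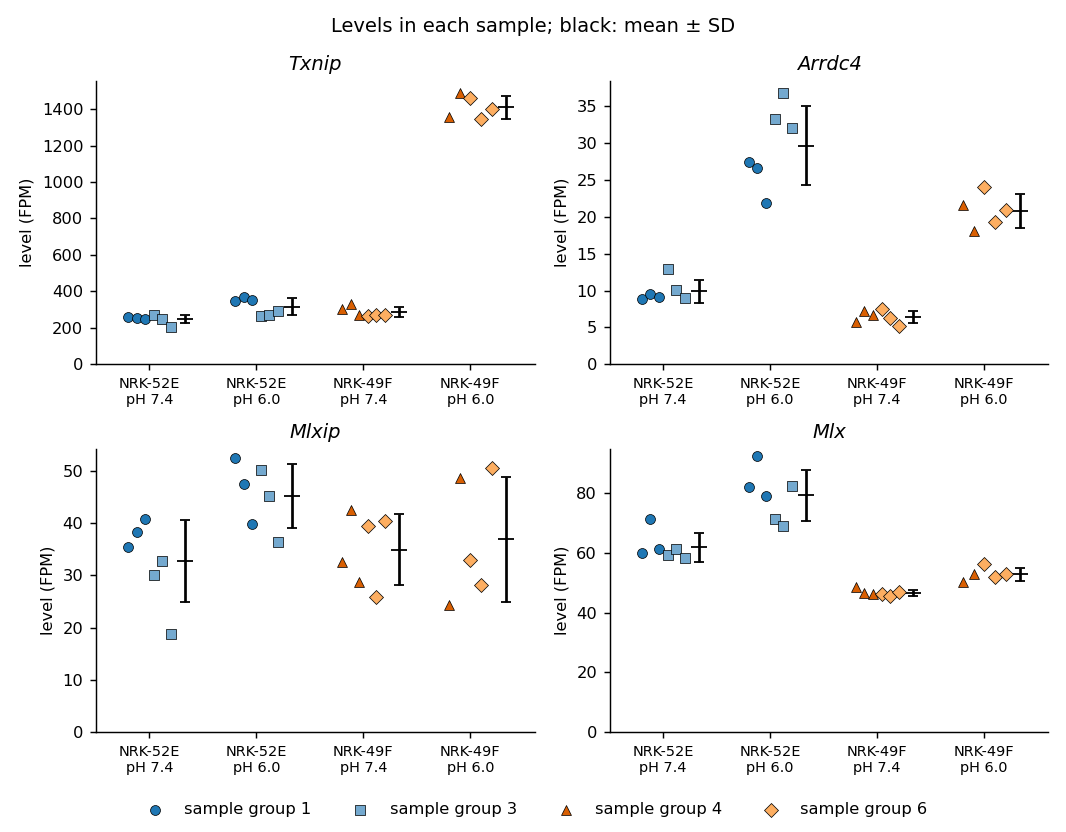
Levels of Txnip, Arrdc4, Mlxip and Mlx (vertical axes, FPM) in each of the 23 samples by cell line and pH, with the marker shape giving the sample group and black bars the mean ± SD. Txnip stood at 1348 to 1490.2 FPM in the 5 NRK-49F samples at pH 6.0, above the 370.4 FPM of the highest other sample at pH 6.0, while Arrdc4 rose in both lines.

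Txnip (ENSRNOG00000021201, chromosome 2) had in NRK-49F cells at pH 7.4 a lowest level of 263, a median of 270.1 and a highest of 333 FPM. At pH 6.0 the 5 NRK-49F samples had Txnip levels of 1357 (A042), 1490.2 (A043), 1463 (A054), 1348 (A055) and 1399 FPM (A056). Every acid sample was thus above every control sample, as for 10.4% of all genes tested in this line. The acid samples lay close together around a mean of 1411.5 ± 63.3 FPM (SD, n = 5), against 285 ± 27.6 FPM (SD, n = 6) in the controls. For Txnip the log2 fold change was 2.31 (SE 0.0973, adjusted p = 2.48e-14, edgeR), a 4.96-fold rise with a 95% interval of 4.31 to 5.70, and its rank among the 14777 genes was 103 from the top.

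In NRK-52E cells the Txnip level at pH 7.4 ran from 206 over a median of 254 to 269.6 FPM. At pH 6.0 it ran from 265 over 319 to 370.4 FPM. The 2 sets of samples overlapped, since the lowest acid sample, A036, lay below the highest control, A033, and the means were 249 ± 21.98 and 317 ± 45.6 FPM (SD, n = 6 each). Here the log2 fold change of Txnip was 0.35 (SE 0.0907, adjusted p = 0.00193, edgeR), a 1.27-fold rise of rank 3626 from the top. Within sample group 1 Txnip rose by 0.48 (adjusted p = 0.000366), and within sample group 3 the value was 0.19 (adjusted p = 0.0978, edgeR). The acid samples of sample group 1 averaged 357 FPM and those of sample group 3 averaged 277 FPM, against 255 and 242 FPM in their controls. The difference of the Txnip change between those sample groups was -0.29, group 3 minus group 1, and did not pass the test (adjusted p = 0.194, edgeR), nor did that of any other member, where 10.6% of all genes were called.

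The change of Txnip itself differed between the lines: that of NRK-52E minus that of NRK-49F was -1.96 on the log2 scale (95% interval -2.23 to -1.69, adjusted p = 8.50e-11, edgeR). Txnip was the 1 member of 4 to differ, where 41.4% of all genes tested were called. At pH 7.4 the Txnip levels of the lines overlapped and their difference, NRK-52E minus NRK-49F, was -0.19 (adjusted p = 0.0613, edgeR). At pH 6.0 that difference was -2.16 (adjusted p = 9.96e-16, edgeR), with NRK-49F cells 4.46-fold higher and no overlap of samples, where 75.5% of all genes were called. The share of all genes without overlap between the lines was not counted. In the order of Txnip levels, NRK-52E at pH 7.4, NRK-49F at pH 7.4 and NRK-52E at pH 6.0 overlapped from neighbour to neighbour, and NRK-49F at pH 6.0 stood alone. The rise of Txnip in NRK-49F cells came to 2.24 for sample group 4 and 2.39 for sample group 6. Of all 14777 genes, 0.00% were called for a difference between these sample groups by edgeR, and 596 had an unadjusted p under 0.05, with no other tool run on this comparison.

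Arrdc4 (ENSRNOG00000010775, chromosome 1) ran in NRK-52E cells from 8.79 over a median of 9.37 to 12.97 FPM at pH 7.4. At pH 6.0 it ran from 21.9 over 29.7 to 36.8 FPM. All acid samples were above all controls, as were 15.4% of all genes tested in this line, and the means were 9.92 ± 1.56 and 29.7 ± 5.39 FPM (SD, n = 6 each). For Arrdc4 the log2 fold change was 1.58 (SE 0.128, adjusted p = 2.61e-10, edgeR), a 2.99-fold rise (95% interval 2.49 to 3.59), of rank 495 from the top.

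Arrdc4 in NRK-49F cells ran from 5.23 over a median of 6.46 to 7.50 FPM at pH 7.4. The 5 acid samples had 21.6 (A042), 18.1 (A043), 24.1 (A054), 19.3 (A055) and 20.9 FPM (A056). Here too every acid sample was above every control, as for Txnip and Mlx in this line and for 10.4% of all genes tested, with means of 6.41 ± 0.874 (SD, n = 6) and 20.8 ± 2.28 FPM (SD, n = 5). Arrdc4 here had a log2 fold change that was 1.70 (SE 0.135, adjusted p = 1.54e-09, edgeR), a 3.24-fold rise (95% interval 2.67 to 3.93), of rank 208 from the top. Within the sample groups Arrdc4 rose by 1.46 (group 1) and 1.67 (group 3) in the NRK-52E line, and by 1.61 (group 4) and 1.76 (group 6) in the NRK-49F line.

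The change of Arrdc4 in NRK-52E minus that in NRK-49F cells was -0.12 on the log2 scale, with a 95% interval of -0.50 to 0.26 (adjusted p = 0.649, edgeR). The levels of Arrdc4 followed the order NRK-49F at pH 7.4, NRK-52E at pH 7.4, NRK-49F at pH 6.0 and NRK-52E at pH 6.0. The first 3 of these did not overlap with each other, and the last 2 overlapped. For how many of all genes the lines did not overlap was not counted. At pH 7.4 Arrdc4 was 0.63 higher in NRK-52E than in NRK-49F cells on the log2 scale (adjusted p = 0.000158), where 68.8% of all genes were called, and at pH 6.0 it was 0.51 higher (adjusted p = 0.00116, edgeR), where 75.5% were called.

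The unequal behaviour of the 2 arrestins was also seen in the ratio of their counts within each sample, which does not depend on scaling between libraries. In NRK-52E cells there were 25.4 ± 3.18 Txnip counts per Arrdc4 count at pH 7.4 and 11.2 ± 3.57 at pH 6.0 (SD, n = 6 each). In NRK-49F cells the ratio was 45.0 ± 6.93 at pH 7.4 (SD, n = 6) and 68.6 ± 8.45 at pH 6.0 (SD, n = 5). The ratio was thus lower at pH 6.0 in all samples of NRK-52E cells and higher in all samples of NRK-49F cells, with no overlap between the pH values in either line. The acid NRK-52E samples of sample group 1 averaged 14.2 and those of sample group 3 averaged 8.16. The ratio follows from the changes given above and carries no test of its own.

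**Figure D2:**
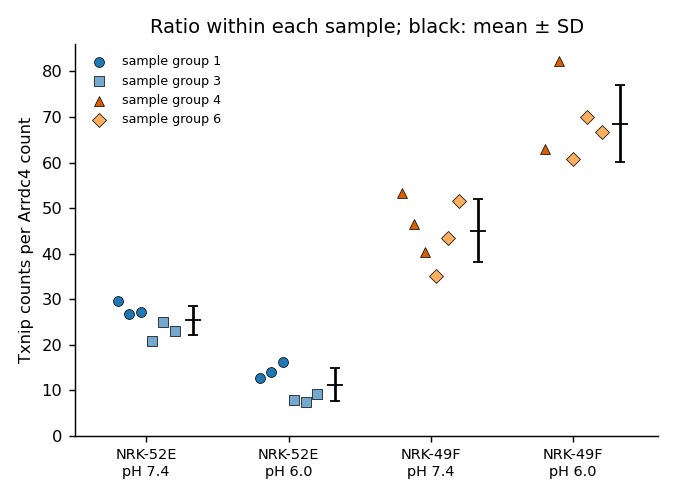
Txnip counts divided by Arrdc4 counts (vertical axis, no unit, not corrected for length) in each sample by cell line and pH, with markers giving the sample group and black bars the mean ± SD. The ratio was 20.8 to 29.6 at pH 7.4 and 7.38 to 16.2 at pH 6.0 in NRK-52E cells, and was 35.005 to 53.3 at pH 7.4 and 60.8 to 82.3 at pH 6.0 in NRK-49F cells.

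The factor side of the system had log2 fold changes of 0.36 (Mlx) and 0.47 (Mlxip) in NRK-52E cells, beside 0.35 for Txnip, and of 0.18 and 0.08 in NRK-49F cells. Mlx (ENSRNOG00000019983, chromosome 10), the shared partner, ran in NRK-52E cells from 58.2 over a median of 60.6 to 71.5 FPM at pH 7.4 and from 69.0 over 80.6 to 92.5 FPM at pH 6.0. The means were 61.9 ± 4.82 and 79.4 ± 8.53 FPM (SD, n = 6 for both), and the highest control, replicate A022, lay within the acid samples. Mlx rose by 0.36 on the log2 scale (SE 0.0688, adjusted p = 8.73e-05, edgeR), or 1.28-fold, with 0.40 and 0.32 within sample groups 1 and 3.

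In NRK-49F cells Mlx ran from 45.7 over a median of 46.5 to 48.5 FPM at pH 7.4, and the acid samples had 50.4 (A042), 52.9 (A043), 56.3 (A054), 51.96 (A055) and 52.9 FPM (A056). No acid sample reached down to a control, as for 10.4% of all genes tested in this line. The means were 46.7 ± 0.970 (SD, n = 6) and 52.9 ± 2.16 FPM (SD, n = 5), yet the log2 fold change of 0.18 (SE 0.0723) missed the threshold (adjusted p = 0.0640, edgeR). It passed with sample group as a block (0.18, adjusted p = 0.0390) and with each cell line fitted alone (0.17, adjusted p = 0.0357, edgeR). Without replicate A025 of NRK-52E cells at pH 6.0, which enters through the shared estimate of the spread, the adjusted p was 0.0442 by edgeR. The change of Mlx in NRK-52E minus that in NRK-49F cells was 0.18, with a 95% interval of -0.03 to 0.38 (adjusted p = 0.161, edgeR). Mlx levels were ordered NRK-49F at pH 7.4, NRK-49F at pH 6.0, NRK-52E at pH 7.4 and NRK-52E at pH 6.0, and only the last 2 overlapped. For how many of all genes the lines did not overlap was not counted. The log2 difference of NRK-52E minus NRK-49F was 0.41 at pH 7.4 (adjusted p = 1.31e-05) and 0.59 at pH 6.0 (adjusted p = 1.05e-07, edgeR), where 68.8% and 75.5% of all genes were called.

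Mlxip (ENSRNOG00000001255, chromosome 12), the MondoA gene, ran in NRK-52E cells from 18.7 over a median of 34.1 to 40.8 FPM at pH 7.4 and from 36.5 over 46.3 to 52.5 FPM at pH 6.0. The samples overlapped, and the lowest control, replicate A035, lay well below the rest. With means of 32.7 ± 7.82 and 45.2 ± 6.13 FPM (SD, n = 6 each), the log2 fold change was 0.47 (SE 0.183, adjusted p = 0.0305, edgeR). This call was lost when 1 of 4 libraries was left out: the value was 0.35 without A035 (adjusted p = 0.0768), 0.44 without A033 (0.0563), 0.42 without A024 (0.0629) and 0.44 without A036 (0.0572, edgeR). Mlxip stood at 0.69 in sample group 3 (adjusted p = 0.0293) and at 0.29 in sample group 1 (adjusted p = 0.379, edgeR).

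In NRK-49F cells Mlxip spread widely, from 25.8 over a median of 35.99 to 42.4 FPM at pH 7.4, and with 24.4 (A042), 48.7 (A043), 32.9 (A054), 28.1 (A055) and 50.4 FPM (A056) at pH 6.0. The acid samples thus lay on both sides of the controls, with means of 34.9 ± 6.83 (SD, n = 6) and 36.9 ± 12.0 FPM (SD, n = 5). The TMM factors of these acid samples followed the order of their Mlxip levels: 0.804 (A042), 0.888 (A055), 0.934 (A054), 0.977 (A043) and 0.992 (A056). The part of library composition in the spread of Mlxip was not tested. The log2 fold change was 0.08, with a 95% interval of -0.32 to 0.47 (adjusted p = 0.804, edgeR), and its sign turned without A043, to -0.041, or without A056, to -0.058. The difference of the change between the lines was 0.39, with a 95% interval of -0.16 to 0.94 (adjusted p = 0.255, edgeR). Mlxip levels overlapped between all 4 conditions, and the lines did not differ past the threshold at pH 7.4 (adjusted p = 0.668) or at pH 6.0 (adjusted p = 0.165, edgeR).

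**Figure D3:**
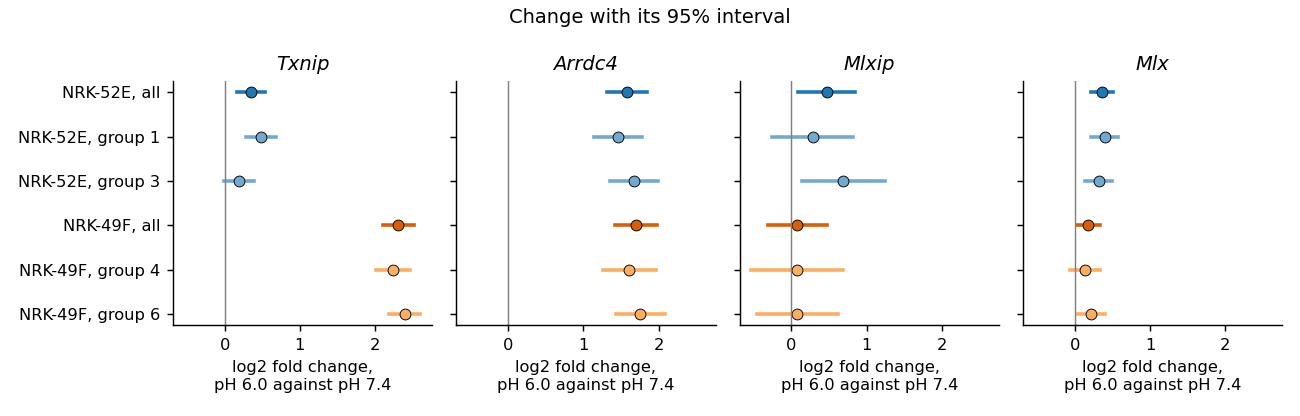
Log2 fold changes at pH 6.0 against pH 7.4 (horizontal axes, 0 marked by the grey line) of the 4 measured members, as points with 95% intervals, for all samples of each line and within each sample group. Txnip stood at 0.35 in NRK-52E and 2.31 in NRK-49F cells, Arrdc4 at 1.58 and 1.70, and the intervals of Mlxip in NRK-49F cells crossed 0.

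Cell type markers differed between the pH values as well, some of those of fibroblasts in NRK-49F cells among them. The summed level of the 12 fibroblast markers was 4982 to 8160 FPM at pH 7.4 and 1842 to 3120.2 FPM at pH 6.0 in NRK-52E cells, mostly from Col3a1, a fibrillar collagen. In NRK-49F cells that sum was 10790 to 13747 and 7337 to 9895 FPM. Of 10 fibroblast markers tested, 9 fell and 0 rose in NRK-52E cells, where 36.6% of all genes fell. In NRK-49F cells 3 fell, 0 rose and 7 were not called, where 14.4% of all genes fell. Col1a1, another collagen, had means of 5876.5 and 3769 FPM in NRK-49F cells at pH 7.4 and 6.0, while Pdgfra had 306 and 304 FPM. The sum of 8 markers of endothelial, leukocyte and muscle cells was, for NRK-49F cells, 33.6 to 47.4 FPM at pH 7.4 and 228 to 264 FPM at pH 6.0. Cd68, a lysosomal glycoprotein, made up most of it at pH 7.4 and nearly all of it at pH 6.0, at 29.9 ± 4.21 (SD, n = 6) and 229 ± 13.8 FPM (SD, n = 5). Ptprc, which defines leukocytes, was at 0 in all NRK-49F samples at pH 6.0. In NRK-52E cells this sum was 18.4 to 29.3 and 31.6 to 41.8 FPM, with single markers moving apart. Des, desmin of muscle, rose from 0.986 ± 0.219 to 19.9 ± 4.93 FPM, and Tek, an endothelial receptor, fell from 14.3 ± 4.08 to 1.76 ± 0.624 FPM (SD, n = 6 for both; adjusted p = 4.84e-13 and 1.32e-07, edgeR). Of 5 of these markers tested there, 4 rose and Tek alone fell, where 24.7% of all genes rose and 36.6% fell. Pecam1, another endothelial marker, went from 0.056 ± 0.0715 to 0.581 ± 0.288 FPM (SD, n = 6 for both). Krt8 fell in both lines, to 222 ± 26.7 FPM (SD, n = 6) in the NRK-52E and 566 ± 104 FPM (SD, n = 5) in the NRK-49F line at pH 6.0 (adjusted p = 1.02e-07 and 0.00409, edgeR). The part of these marker shifts in the member results was not tested.

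Likeness was Pearson's r of log2(FPM + 1) over the 23 samples, for 10847 genes compared. Genes without a symbol, or with only a clone or locus identifier, were not ranked. The ranked genes most like Txnip were Haus8, a subunit of the augmin complex of the spindle (0.976), Hap1, the huntingtin-associated protein (0.972), and Afg3l2, a mitochondrial protease (0.944). Next came Sin3b, a corepressor (0.935), and Mthfd1l, a mitochondrial folate enzyme (0.931). The mean level of Haus8 was 10.0 and 14.0 FPM in NRK-52E cells and 12.4 and 65.2 FPM in NRK-49F cells at pH 7.4 and 6.0, a log2 fold change of 0.49 and 2.40. The ranked genes most like Arrdc4 were Ipo5, an importin (0.963), Nampt, of NAD synthesis (0.959), Mlh3, of mismatch repair (0.951), Gsta1, a glutathione transferase (0.950), and Gclc, which limits glutathione synthesis (0.943). Gsta1 rose by 1.30 in NRK-52E and 1.51 in NRK-49F cells and Mlh3 by 3.10 and 2.65 on the log2 scale. These points share 4 condition means: over deviations from the condition means, r ran from 0.256 to 0.704 for the genes like Txnip and from 0.201 to 0.620 for those like Arrdc4.

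The other alpha-arrestins did not follow Txnip and Arrdc4 as a group. Of 4 further genes, 3 were tested. Their median log2 fold change was -0.05 in NRK-52E and 0.33 in NRK-49F cells, against -0.12 and 0.00088 over all genes. In NRK-52E cells 1 rose and 1 fell, near the 24.7% and 36.6% of all genes. In NRK-49F cells 2 rose and 0 fell, where 14.5% of all genes rose and 14.4% fell. Arrdc2 rose in both lines, by 0.49 and 0.59 on the log2 scale (adjusted p = 0.000874 and 0.000582, edgeR). Arrdc3, which like its relatives links ubiquitin ligases to membrane proteins, fell in the NRK-52E line from 36.5 ± 3.604 to 21.8 ± 5.17 FPM (SD, n = 6 for both), by 0.75 on the log2 scale (adjusted p = 3.75e-05), and was at 0.17 in NRK-49F cells (adjusted p = 0.381, edgeR). In NRK-49F cells Arrdc1 also passed the test, at 0.33 (adjusted p = 0.00446, edgeR).

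In the Max and Mlx network of partner factors and antagonists, 9 of 10 genes were tested, of which 3 rose and 3 fell in NRK-52E cells, where 24.7% of all genes rose and 36.6% fell. In NRK-49F cells 1 rose and 2 fell, where 14.5% of all genes rose and 14.4% fell, and these shares of the list lie near those of all genes. The count of 2 that fell was 1 without replicate A040, A042, A053 or A054. The medians were 0.16 and -0.16, against -0.12 and 0.00088 over all genes. Max, the partner of Myc, rose from 62.9 to 150.2 FPM in NRK-52E cells, or by 1.26 (adjusted p = 6.04e-12), and from 83.4 to 113 FPM in NRK-49F cells, by 0.44 on the log2 scale (adjusted p = 0.000331, edgeR). Mycn, a Myc relative, fell in NRK-52E cells by 1.74 (adjusted p = 0.000131, edgeR), and Mxd1, a Max-binding repressor, fell in NRK-49F cells by 0.48 on the log2 scale (adjusted p = 0.025, edgeR).

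Glucose carriers and the enzymes that make or use glucose 6-phosphate, the signal that MondoA senses, moved in both directions. Of 14 genes tested, 6 rose and 3 fell in NRK-52E cells, beside 24.7% and 36.6% of all genes, while 4 rose and 2 fell in NRK-49F cells, beside 14.5% and 14.4%. The medians were 0.18 in each line, against -0.12 and 0.00088 over all genes. The count of 2 that fell was 1 without replicate A042 or A055. Hk2, a hexokinase, rose from 12.3 to 41.3 FPM in NRK-52E cells, by 1.74 (adjusted p = 1.46e-08), and from 17.025 to 25.9 FPM in NRK-49F cells, by 0.60 on the log2 scale (adjusted p = 0.0159, edgeR). Slc2a1, the carrier GLUT1 that Txnip protein withdraws from the membrane, rose with Txnip and by more in NRK-49F cells: by 0.38 (adjusted p = 0.0045) in NRK-52E and by 0.93 (adjusted p = 1.67e-06, edgeR) in NRK-49F cells, a difference of -0.54 (adjusted p = 0.00856, edgeR). Slc2a10, another carrier, fell in both lines, by 1.35 and by 0.67 on the log2 scale (adjusted p = 1.05e-06 and 0.0172, edgeR).

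Of 3 glycolytic genes described under MondoA, Hk2 and Pfkfb3 rose in both lines, and Ldha, lactate dehydrogenase A, fell in NRK-52E cells by 0.83 (adjusted p = 3.06e-05) and was at 0.14 in NRK-49F cells (adjusted p = 0.527, edgeR). Their medians were 1.15 and 0.60, against -0.12 and 0.00088 over all genes. Of all genes, 24.7% rose and 36.6% fell in NRK-52E cells, and 14.5% rose and 14.4% fell in NRK-49F cells. Within sample group 4 of NRK-49F cells 0 of the 3 genes were called, and within sample group 6 there was 1, which rose. Hk2 was counted with the glucose carriers and enzymes above as well. Pfkfb3, which makes the activator of phosphofructokinase, rose by 1.15 (adjusted p = 4.56e-06) and by 0.66 (adjusted p = 0.0114, edgeR).

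Among genes described as ChREBP targets, mostly in liver and fat, 14 of 20 were tested, where 6 rose and 5 fell in NRK-52E cells (24.7% and 36.6% of all genes), while 3 rose and 3 fell in NRK-49F cells (14.5% and 14.4% of all genes). The medians were -0.02 and -0.01. The count of 3 that fell was 1 without replicate A040, A052, A054 or A055. Tkt, transketolase of the pentose phosphate pathway, rose most in NRK-49F cells, from 280.2 to 1491 FPM, by 2.41 (adjusted p = 2.48e-14), and from 370.3 to 756 FPM in NRK-52E cells, by 1.03 on the log2 scale (adjusted p = 1.79e-09, edgeR). Its change thus differed between the lines in the same direction as that of Txnip, at -1.38 (adjusted p = 2.71e-08, edgeR). Fasn, fatty acid synthase, moved apart: it rose from 119.8 to 328 FPM in NRK-52E cells, by 1.45 (adjusted p = 4.51e-10), and fell in NRK-49F cells from 112 to 87.7 FPM, by 0.36 on the log2 scale (adjusted p = 0.0363, edgeR). Tkfc, which acts in fructose breakdown, fell in both lines, by 1.19 and by 0.33 (adjusted p = 5.98e-09 and 0.0411, edgeR).

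In the thioredoxin system, whose protein thioredoxin binds Txnip, all 10 genes were tested, where 5 rose and 3 fell in NRK-52E cells, against 24.7% and 36.6% of all genes. In NRK-49F cells 6 rose, against 14.5% of all genes, and 4 did not pass the test. The medians were 0.48 and 0.49. The count of 3 that fell was 1 without replicate A035. Txnrd3, a thioredoxin reductase, rose from 11.4 to 35.9 FPM in NRK-52E cells, by 1.65 (adjusted p = 4.30e-13), and from 27.4 to 50.8 FPM in NRK-49F cells, by 0.89 on the log2 scale (adjusted p = 8.09e-08, edgeR). Prdx1, a peroxiredoxin, rose in NRK-49F cells by 1.30 (adjusted p = 5.22e-06) and was at -0.25 in NRK-52E cells (adjusted p = 0.213, edgeR). Txnrd2, the mitochondrial reductase, fell in NRK-52E cells by 1.29 (adjusted p = 7.13e-10) and was at 0.27 in NRK-49F cells (adjusted p = 0.0831, edgeR).

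Of 11 ubiquitin ligases, their adaptors and kinases that act on Txnip or other alpha-arrestin proteins, 2 rose and 4 fell in NRK-52E cells, near the 24.7% and 36.6% of all genes, while 1 rose and 3 fell in NRK-49F cells, where these shares were 14.5% and 14.4%. The medians were -0.10 and 0.02. The count of 2 that rose was 1 without replicate A021, A033 or A038. Itch, the ligase known to degrade Txnip protein, rose in NRK-52E cells by 0.52 (adjusted p = 0.000261) and was at -0.06 in NRK-49F cells (adjusted p = 0.755, edgeR). Wwp2, a ligase of the same family, fell in NRK-52E cells from 35.3 to 11.4 FPM, by 1.62 (adjusted p = 1.10e-13), and rose in NRK-49F cells by 0.25 on the log2 scale (adjusted p = 0.0235, edgeR), a call that was lost without replicate A039, A055 or A056. Akt1, a kinase that phosphorylates Txnip, fell in both lines, by 0.30 and by 0.37 (adjusted p = 0.0021 and 0.00173, edgeR).

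**Figure D4:**
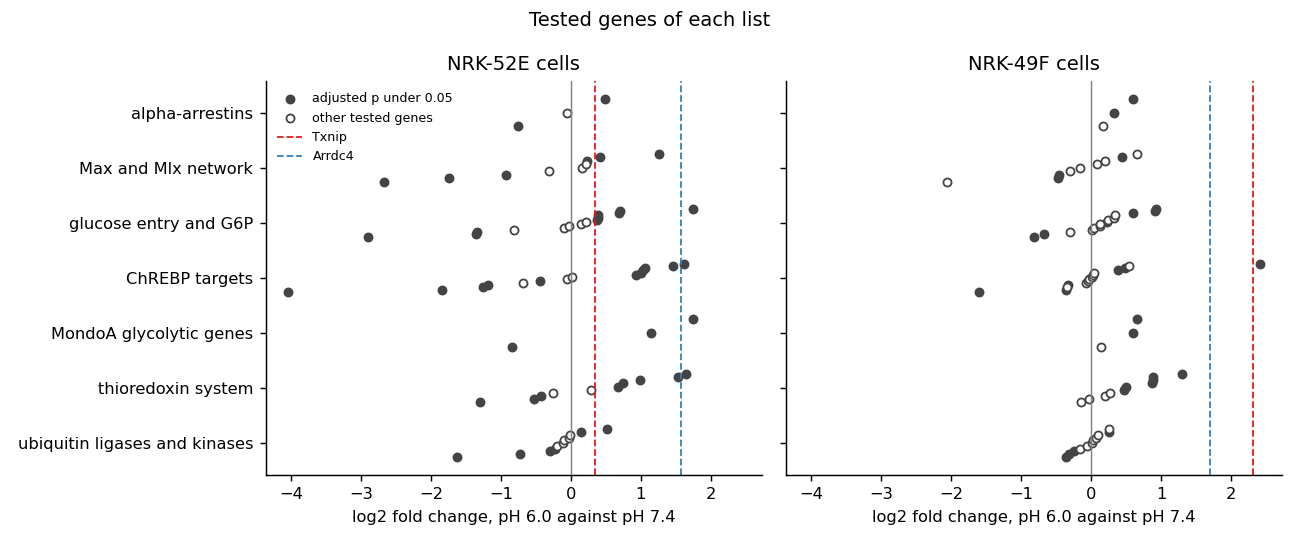
Log2 fold changes at pH 6.0 against pH 7.4 (horizontal axes) of each tested gene in 7 lists (rows) for NRK-52E cells and NRK-49F cells, filled where the adjusted p was under 0.05, with dashed lines at the changes of Txnip and Arrdc4. In NRK-49F cells the listed gene beyond Txnip was Tkt, at 2.41, and in NRK-52E cells Hk2, at 1.74, lay farthest beyond Arrdc4.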

How the data were processed

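Poly(A) RNA of 23 rat samples was sequenced in read pairs of 150 bases. The deposited table holds raw counts per Ensembl gene, which the authors made with HISAT2 2.1.0 and featureCounts on exons, multi-mapping reads included and without normalization. The study's methods name the build rn7 and the submitters' processing notes rn6, and a strand setting is not given in the sources used here. Of 36 sample columns, 13 matched no label and were not used. The deposited fold changes and p-values of the authors' comparisons were not used.

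Counts were filtered with filterByExpr (minimum count 10, minimum total 15), scaled by TMM and tested with edgeR 4.0.16 (R 4.3.3) in 1 quasi-likelihood fit over 4 conditions, with Benjamini-Hochberg adjustment over all genes, a threshold of 0.05 and 95% intervals. Sample groups were compared in a fit of 8 cells of line, group and pH. The tests were tested on simulated data. Alternatives were other scalings, DESeq2 1.42.0, no filter, each line alone, a sample group block, single sample groups and each library left out. Replicate codes were not shared between groups. No 2 libraries of a condition agreed within sampling noise. The spread between samples includes the counting error at the depths given.

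The members and lists were chosen with earlier results of these data known. Named were the members, per list and line the largest called rise and fall where the mean reached 5 FPM, and the 5 genes most like Txnip and Arrdc4. The latter were taken among genes with a symbol other than a clone or locus identifier. Arrdc1 and the cell type markers were named beyond this rule, the former after its values were seen. Promoters came from RefSeq, where 4 of the 5 members matched, all but Txnip.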

Additional observations from a re-analysis of the deposited data

Results flagged for a closer look

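Over 16 groups of samples of the 4 members, 3 held a sample far from the rest of its group, where chance gives about 1 in 20. All 3 were NRK-52E samples at pH 7.4: Arrdc4 at 12.97 FPM in A033, Mlx at 71.5 FPM in A022 and Txnip at 206 FPM in A035.

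The change at pH 6.0 differed between the lines, by edgeR's test of the difference, for 1 of 4 members, 14 of the 19 named list genes and 6 of the 10 genes most like a target, where 41.4% of all genes were called. The list genes were named for the largest changes in 1 line, which favours a difference. Values are given as NRK-52E minus NRK-49F on the log2 scale. The difference was -1.96 for Txnip. The change, not the level, was likewise lower in NRK-52E cells for Wwp2 at -1.87, Txnrd2 at -1.56, Prdx1 at -1.55 and Tkt at -1.38. The same held for Ldha at -0.98, Arrdc3 at -0.92, Tkfc at -0.86 and Slc2a1 at -0.54. Differences the other way were found for Fasn at 1.81, Hk2 at 1.14, Max at 0.82, Txnrd3 at 0.76, Mxd1 at 0.69 and Itch at 0.58. The genes most like Txnip had Haus8 at -1.91, Hap1 at -1.49, Sin3b at -0.93, Afg3l2 at -0.80 and Mthfd1l at -0.47, which their likeness over the same samples favours. Gclc, like Arrdc4, was at -0.34.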

How the results depend on the processing

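The changes of Txnip in NRK-49F cells (2.24 to 2.39), of Arrdc4 in both lines (1.47 to 1.67 and 1.61 to 1.75) and the Txnip difference between the lines (-2.20 to -1.75) kept direction and call under all alternatives and with each library left out. With sample groups 3 and 6 alone, Txnip in NRK-52E cells was 0.19 (adjusted p = 0.145, edgeR), and with groups 1 and 4 alone, Mlxip in NRK-52E cells was 0.29 (adjusted p = 0.307, edgeR). Mlx in NRK-49F cells passed with each cell line alone at 0.17 (adjusted p = 0.0357, edgeR) and with sample group as a block at 0.18 (adjusted p = 0.0390, edgeR). The Mlx difference between the lines passed in DESeq2 at 0.23 (adjusted p = 0.0469). Causes of these shifts were not tested. With single libraries left out, Mlxip in NRK-52E cells ran from 0.35 to 0.54, Mlxip in NRK-49F cells from -0.058 to 0.19, with -0.041 without A043 and -0.058 without A056, and Mlx in NRK-49F cells from 0.16 to 0.20. Fitting each cell line alone moved the median of all genes in NRK-52E cells from -0.12 to -0.0023, with Txnip at 0.44 and Arrdc4 at 1.67 there. Of 224 list counts under the alternatives, 24 moved by more than 1.5 times and by at most 3 genes, and of 644 with a library left out, 17 moved by at most 2 genes. No paired analysis was possible because the replicate codes pair no samples. The sample group block above matches samples only by group.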
